A study of Homo sapiens with 3 samples.

Results

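The RBM family transcripts are the RNAs of the protein-coding genes whose symbols start with RBM, for RNA-binding motif, on chromosomes 1 to 22 and X. They were examined among RNAs crosslinked to HA-tagged HNRNPA0. The RefSeq table held 47 such symbols, of which 45 are single genes and 2, RBM14-RBM4 and RBM27-POU4F3, are readthrough genes that join a gene with its neighbour. At least 1 peak lay in 30 of the 47, and 17 had none. RBM27-POU4F3 is among the 17, since gene IDs that fitted both a single gene and a readthrough gene were tied to the single gene. The family was chosen by its name and with its peaks and read numbers in these lists known, so how many members hold peaks, how high those peaks are and how well they recur are given as a description.

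The data came from easyCLIP, in which RNA is bonded to protein by UV light, recovered with the protein, trimmed and sequenced. The cells were HEK293T, a human embryonic kidney line expressing SV40 T antigen, of wild-type genotype per the labels. Each 15 cm plate received 750 ng of vector encoding the HA-tagged protein, the UV dose was 0.3 J/cm2 at a wavelength of 254 nm, and anti-HA beads captured the protein from roughly 2 mg of lysate. All 3 samples formed 1 group, with no untransfected, tag-only or input sample among those used here, so a peak is not set against a background here. The labels do not say that the replicates came from separate plates, and the spread between them may be technical. The protein was made from a transfected vector on top of the cells' own, and RNA levels were not measured, so more RNA and more crosslinking per RNA cannot be told apart. Of the marker genes of this line, 2 of 5 held a peak (VIM and NEFM), while KRT8, KRT18 and NEFL held none. Of markers of other cell types, 0 of 11 held a peak. Of all protein-coding genes 28.6% held a peak, so these counts do not test the identity of the cells.

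HNRNPA0 is an hnRNP of the A/B family known for binding AU-rich sequence in messenger RNA. RBM proteins bind RNA through RNA recognition motifs and act in splicing, in the exon junction complex, in m6A methylation, in nuclear RNA decay and in the response to cold. Many splicing regulators are known to control the splicing of their own transcripts and of each other's.

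The reference gives promoter sequence up to base 50 of each gene, and among RBM regions found in more than 1 replicate, only that at the start of RBMX reaches into that window. It is therefore the stretch that can be shown. It lies on the minus strand of X at 136880676-136880694 (RefSeq, GRCh38.p14), bases 32 to 50 of the gene, and the capitals mark the 10 bases inside the peaks of both replicates that had one there.

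RBMX: gttcggtccTCGCACCCGG

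The peak lists held 15661, 15486 and 17791 peaks in replicates 1, 2 and 3, and RBM genes held 138, 130 and 153 of them. A read number is the whole number that ends each deposited peak name, read here as the reads in the peak. Summed over RBM peaks it came to 721, 716 and 773, or 0.714% ± 0.0259 (SD, n = 3) of the read number of all nuclear-encoded peaks. The median read number of an RBM peak was 4 in every replicate, the same as for other protein-coding genes. The lowest value, 3, accounted for 37.7%, 38.5% and 34.0% of RBM peaks, so many of them rest on few reads.

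A region is a set of peaks of 1 gene and strand that overlap by at least 1 bp between replicates, and its value in a replicate is that of the highest peak there. RBM peaks formed 314 regions, of which 242 were seen in 1 replicate, 44 in 2 and 28 in all 3. The 28 belonged to 11 genes. RBM25 held 7, RBMX 5, RBM3 4, RBM39 3, RBM12 and RBM27 2 each, and RBM8A, RBM15, RBM12B, RBM18 and RBM26 1 each. Of all 19974 protein-coding genes, 6.18% held such a region and 28.6% held a peak in any replicate; nothing is read from the family's larger share, since the family was picked with it known. Regions of all 3 replicates were 17 to 206 nt wide, with a median of 105 nt. Each deposited peak also names a short stretch inside it, and these stretches lay within 20 nt of each other across replicates in 15 of the 28 regions.

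**Figure D1:**
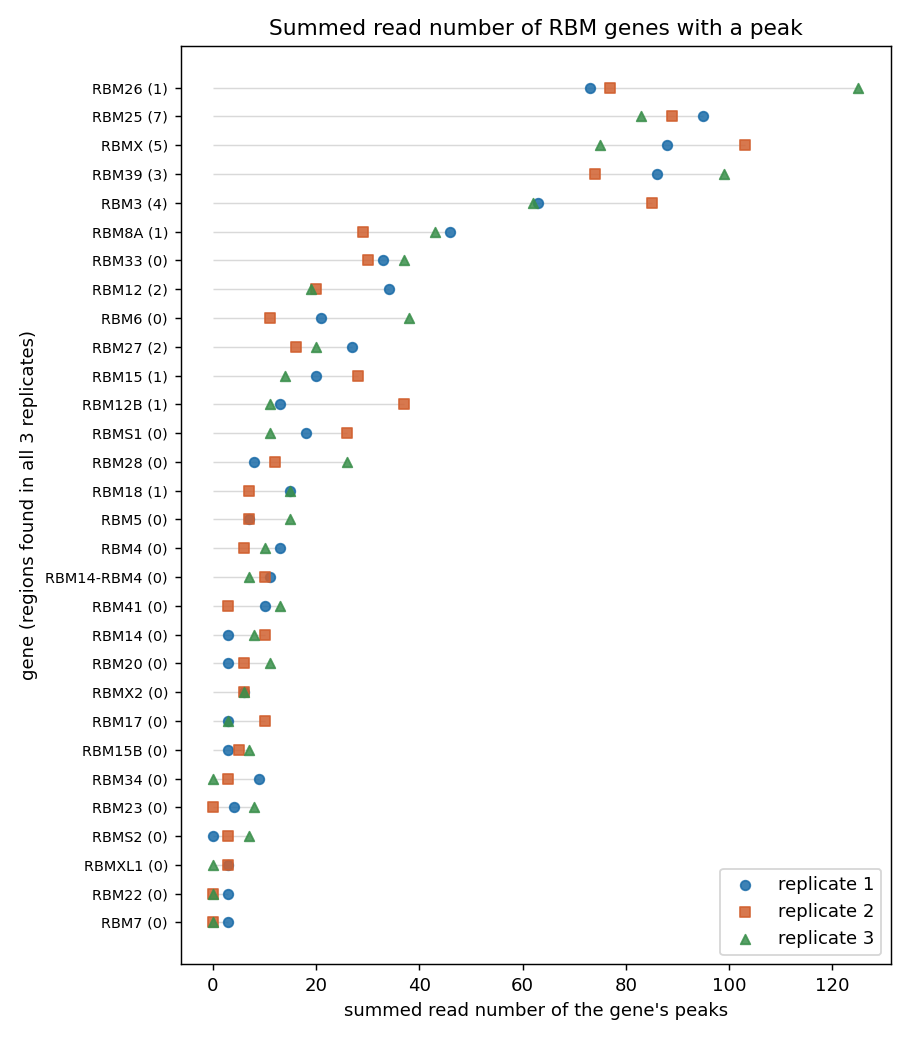
Summed read number of the peaks of each of the 30 RBM genes with a peak, with 1 symbol per replicate and the number of regions found in all 3 replicates in brackets. RBM26, RBM25, RBMX, RBM39, RBM3 and RBM8A lead, and RBM26 does so with 1 such region.

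Read numbers were concentrated in 6 genes. RBMX, RBM25, RBM39, RBM26, RBM3 and RBM8A together held 62.6%, 63.8% and 63.0% of the RBM read number in replicates 1, 2 and 3. By summed read number over the replicates, RBM26 ranked 118th, RBM25 129th, RBMX 130th, RBM39 139th and RBM3 211th of the 5719 protein-coding genes with a peak. RBM8A was lower, at 496th. By regions found in all 3 replicates, 15 genes had more than RBM25, 42 more than RBMX and 61 more than RBM3.

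In the RBMX family, RBMX (ENSG00000147274.14), which encodes hnRNP G, a splicing regulator, held the highest RBM peak of each list. Its gene covers 136869192 to 136880725 of X on the minus strand. The top peak, at X:136869384-136869506, had read numbers of 36, 30 and 20 in replicates 1, 2 and 3 and ended 192 nt before the 3′ end of the gene. On average it carried 32.2% of the read number of RBMX. It was the lowest in replicate 3, yet still the highest RBM peak there.

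The other RBMX regions found in all 3 replicates lay in the body of the gene and were lower. That at X:136872280-136872329 had read numbers of 6, 10 and 6. That at X:136874123-136874217 had 7, 12 and 9. Replicate 2 was the highest in both, and no replicate of either reached the level of the 3′ peak. The next, at X:136875095-136875169, had 9, 11 and 10, and the last, at X:136876546-136876634, had 7, 8 and 6. The replicates differed by no more than 2 reads in these, the closest agreement in the gene. The region at the RBMX start, X:136880616-136880694, whose first bases in the RNA are printed above, had no peak in replicate 1 and read numbers of 11 and 6 in replicates 2 and 3.

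RBMX had 9 peaks in each replicate, and 1 of those of replicate 1, with 3 reads, lay beyond the 3′ end of the RefSeq gene. With that peak included, the summed read numbers of RBMX were 88, 103 and 75. The regions shared by all replicates held 73.9%, 68.9% and 68.0% of that read number. A peak of replicate 3 with a read number of 5, at X:136879211-136879226, lay over SNORD61, a small nucleolar RNA hosted by the gene. Its relatives held little. RBMX2, a spliceosome component, had a summed read number of 6 in each replicate. RBMXL1, a retrocopy of RBMX, had read numbers of 3, 3 and 0, both peaks also standing under another gene ID. RBMXL2 and RBMXL3 had no peak. RBMX and its retrocopies are close in sequence, so reads shared between them could be placed in either; how such reads were placed is not given in the sources used here. None of 32 RBM pseudogenes in the RefSeq table held a peak. A gene ID that fitted both a pseudogene and another gene was tied to the other gene. The share over all pseudogenes was not computed, so nothing is read from this count.

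**Figure D2:**
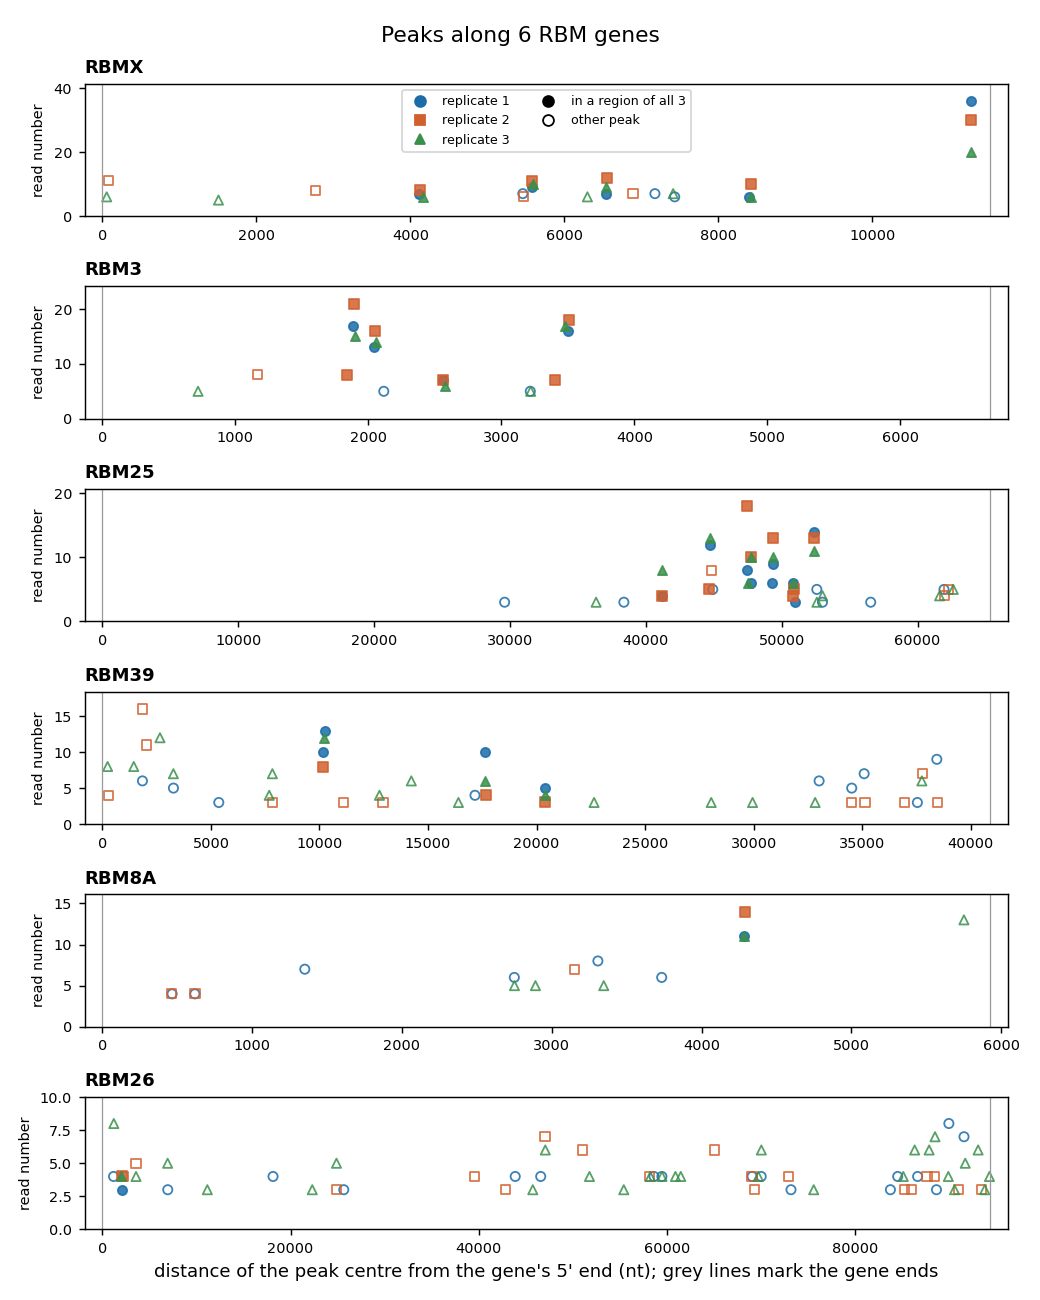
Read number of each peak against the distance of its centre from the 5′ end of the gene, in nt, for 6 RBM genes; symbols mark the replicates, filled symbols lie in regions found in all 3 replicates, and 1 peak each of RBMX and RBM8A beyond the 3′ end of the RefSeq gene is not drawn. RBMX has its highest peaks at the 3′ end, RBM3 and RBM25 have clusters within the gene, and RBM26 has many low peaks along its length.

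RBM25 and RBM39 held 10 regions in all 3 replicates between them, all that the 16 splicing genes had. RBM25 (ENSG00000119707.13), a splicing regulator linked to alternative splicing of the apoptosis gene BCL2L1, covers 73058534 to 73123899 of chromosome 14 on the plus strand. Its 7 regions lay between 63.0% and 80.1% of the way along the gene. The highest single value was in replicate 2, at 14:73105873-73106073, with read numbers of 8, 18 and 6. The region at 14:73110831-73110965 was the steadiest of the high ones, at 14, 13 and 11. That at 14:73103189-73103327 had 12, 5 and 13. Replicate 3 was the lowest in the first pair of these and replicate 2 in the last.

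Of the remaining RBM25 regions, those at 14:73107826-73107902 and 14:73106196-73106286 had 9, 13 and 10, and 6, 10 and 10. Those at 14:73109342-73109493 and 14:73099712-73099751 had 6, 5 and 6, and 4, 4 and 8. Summed over the gene the read numbers were 95, 89 and 83 from 16, 11 and 12 peaks, and regions in all 3 replicates held 71.6%, 80.9% and 77.1% of them. The gene is 65366 bp long, and the peak nearest its 5′ end was centred 29605 nt from it.

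RBM39 (ENSG00000131051.21), also called CAPER alpha, is a splicing factor related to U2AF2 and is degraded in cells treated with aryl sulfonamides such as indisulam. It covers 35701347 to 35742260 of chromosome 20 on the minus strand and held 13, 14 and 17 peaks. The highest of its 3 regions, at 20:35731937-35732139, had read numbers of 13, 8 and 12, with the named stretches spread over 108 nt. Those at 20:35724569-35724686 and 20:35721862-35721878 had 10, 4 and 6, and 5, 3 and 4. Replicate 2 was the lowest in all 3 of these. Nearer the start of the gene, at 20:35740385-35740470, the read numbers were 6, 16 and 0, so replicate 2 was the highest there. Beside it, 20:35740206-35740247 had 11 in replicate 2 and 20:35739551-35739669 had 12 in replicate 3, neither with a peak in another replicate. Summed read numbers were 86, 74 and 99, and regions in all 3 replicates held 44.2%, 20.3% and 22.2% of them, well below the shares in RBM25 and RBMX.

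The other splicing genes with peaks had no region found in all 3 replicates. RBM6 and RBM5, neighbouring relatives with roles in splicing, had summed read numbers of 21, 11 and 38, and of 7, 7 and 15. A peak of 3 reads in replicate 1, at 3:50094873-50094935, was counted for RBM6 but lies beyond its 3′ end and within RBM5. RBM4, RBM14, RBM17 and RBM20 were at most 13 in any replicate. RBM20, known for splicing titin in heart muscle, had 3, 6 and 11. RBM23 and RBM22 lacked a peak in at least 1 replicate. RBM4B, RBM10, RBM11, RBM24, RBM42 and RBM47 had no peak. RBM4 and RBM14 share their locus with the readthrough gene RBM14-RBM4. Its peaks that overlapped none of theirs in the same list had summed read numbers of 11, 10 and 7. Several of these lie within the RBM14 interval and cannot be told apart from that gene by position. For the minor spliceosome, RBM41 had 10, 3 and 13 and RBM48 had no peak.

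RBM3 (ENSG00000102317.17), whose product rises at low temperature and supports translation, was the single cold-inducible gene listed. It covers 48574484 to 48581162 of X on the plus strand, 6679 bp, and held 4 regions in all 3 replicates. The first, at X:48576314-48576421, had read numbers of 17, 21 and 15. Next to it, X:48576507-48576573 had 13, 16 and 14. The region at X:48577859-48578064 had 16, 18 and 17. Each of these was above 10 in every replicate, and replicate 2 was the highest in each. A lower region, X:48577026-48577088, had 7, 7 and 6.

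The named stretches of the first pair of RBM3 regions lay within 9 and 5 nt of each other across replicates. RBM3 had summed read numbers of 63, 85 and 62 from 6, 7 and 6 peaks. Of its 19 peaks, 73.7% lay in regions of all 3 replicates, and no peak had a read number under 5. All 4 regions ended at least 3098 nt before the 3′ end of the RefSeq gene; which of its transcript ends these cells use was not tested.

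Among exon junction and m6A genes, RBM8A (ENSG00000265241.6), which encodes Y14, a core subunit of the exon junction complex, held 7, 4 and 6 peaks. It covers 145921556 to 145927484 of chromosome 1 on the minus strand, and its peak of 4 reads in replicate 3 lies beyond that interval. Its region at 1:145923144-145923256 had read numbers of 11, 14 and 11, so the replicates agreed within 3 reads. A peak of 13 at 1:145921670-145921794, 114 nt from the 3′ end, was seen in replicate 3 and in no other. Both lie within the RefSeq interval of GNRHR2 as well. They carry the gene ID that was tied to RBM8A, and that tie itself rests on the positions of the ID's peaks. RBM15, a subunit that guides the m6A writer to its targets, had a region at 1:110344561-110344693 with 7, 4 and 4. Its paralog RBM15B had summed read numbers of 3, 5 and 7 and no region in all 3 replicates.

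In nuclear RNA decay and export, RBM26 and RBM27, related zinc finger proteins that work with the nuclear exosome adaptor ZFC3H1, differed in their pattern. RBM26 (ENSG00000139746.15; chromosome 13, 79311827 to 79406255, minus strand) had 18, 19 and 28 peaks with summed read numbers of 73, 77 and 125. Its highest peak in each replicate was only 8, 7 and 8. Of its 65 peaks, 4.62% lay in its 1 region of all 3 replicates, 13:79404181-79404260, with 3, 4 and 4 reads. It held 11 regions in at least 2 replicates, and most of its peaks did not recur in all 3. Replicate 3 gave RBM26 its most peaks and also had the longest list, and a link between these was not tested.

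RBM27 had 6, 3 and 5 peaks. A pair of regions lay close together at 5:146269215-146269282, with 4, 7 and 4, and at 5:146269420-146269465, with 4, 6 and 4. Both also lie in the interval of RBM27-POU4F3. No peak was counted under that name, because gene IDs that fitted both genes were tied to RBM27. RBM33, a partner of the m6A demethylase ALKBH5, had summed read numbers of 33, 30 and 37 from 10, 8 and 11 peaks, but 0 regions in all 3 replicates. RBM7, the RNA-binding subunit of the NEXT complex, had 1 peak, of 3 reads, in replicate 1, which also stands under another gene ID.

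The rest held low peaks. RBM18 had a region at 9:122240073-122240175 with 7, 7 and 8, at 90.8% of the way along it. RBM12 had regions at 20:35651423-35651533 with 8, 4 and 7 and at 20:35652469-35652575 with 6, 3 and 5. Of its 16 peaks, 14 stand in the lists under another gene ID too, and both regions lie within CPNE1, so they cannot be told apart from it. RBM12B had a region at 8:93731919-93732033 with 6, 5 and 5. Of the nucleolar genes, RBM28 had 8, 12 and 26 summed, RBM34 had 9, 3 and 0, and RBM19 had no peak. All 3 RBM34 peaks also stand under another gene ID. Of the MSSP genes, which bind single-stranded nucleic acid, RBMS1 had 18, 26 and 11 and a highest peak of 6, 9 and 6, RBMS2 had 0, 3 and 7 and RBMS3 had none. No peak lay in RBM38, RBM44 or RBM46, of RNA stability and the germline, nor in RBM43 or RBM45.

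**Figure D3:**
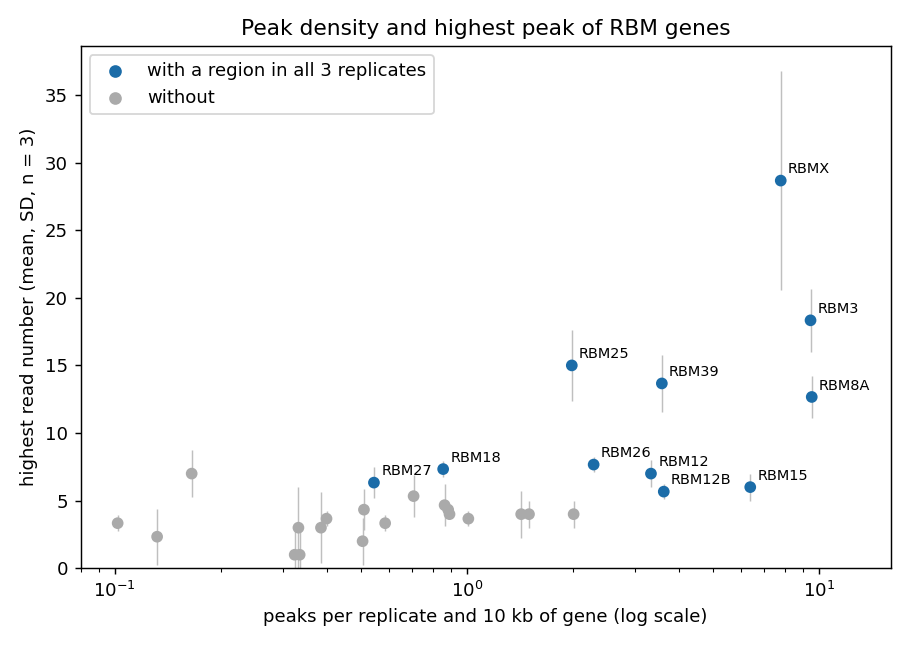
Mean highest read number of each RBM gene with a peak, with its SD over 3 replicates, against the number of peaks per replicate and 10 kb of gene on a log scale; blue points mark genes with a region in all 3 replicates. RBM8A, RBM3 and RBMX are the densest, and RBMX is the highest.

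The densest genes were among the shorter ones, at 5929 to 11534 bp. RBM8A, RBM3 and RBMX held 9.56, 9.48 and 7.80 peaks per replicate and 10 kb of gene, and RBM15 6.39. Other genes in that length range held fewer. RBM15B (6624 bp), RBM7 (9942 bp) and RBM22 (10271 bp) held 2.01, 0.335 and 0.325, and RBM42 (8650 bp) had no peak. RBM39, RBM26 and RBM25 held 3.58, 2.29 and 1.99 and are longer genes. The RefSeq intervals include introns, and exons and introns were not told apart here.

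Peaks of 10 reads or more numbered 10, 15 and 13 in the RBM genes and came from 20 regions, 15 of them found in all 3 replicates, 2 in 2 and 3 in 1. They lay in RBMX, RBM25, RBM39, RBM3 and RBM8A. As a description, 9.09% ± 2.21 of RBM peaks reached 10 reads, against 9.97% ± 0.870 of the peaks of other protein-coding genes (SD, n = 3), a difference of -0.87 percentage points ± 2.03, smaller than its spread. The sign differed between replicates. Without RBM25, RBMX and RBM3 the difference was -6.69 points, and with read numbers of 5 or more it was -4.58. Those 3 genes hold peaks of 10 reads or more and the other genes kept theirs, so a fall without them was built in.

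Recurring RBM peaks were concentrated in few genes. In replicates 1, 2 and 3, 22.5%, 23.8% and 18.3% of RBM peaks lay in a region of all 3 replicates, against 15.9%, 15.9% and 14.0% for other protein-coding genes. The difference was 6.26 percentage points ± 1.83 (SD, n = 3), and no test is attached because the family was picked with its recurrence known. RBM25, RBMX and RBM3 held 53 of the recurring peaks among 85, or 62.4%, while the rest held 37 among 336, or 11%. Without those 3 genes the difference was -4.17 points. They held the most such regions of the family and the other genes kept their own top ones, so a fall was built in. With all genes the difference was 3.47 points without replicate 1 and 3.30 with a 50% overlap of both peaks required. It was 13.8 in the stricter part of each list by p-value. Recurrence also rose with read number. Of RBM peaks with 3 reads, 2.62% recurred, of those with 4 14.6%, of those with 5 to 9 29.7% and of those with 10 or more 88.2% ± 10.5, against 3.47%, 8.18%, 21.6% and 64.4% ± 1.05 for other genes.

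**Figure D4:**
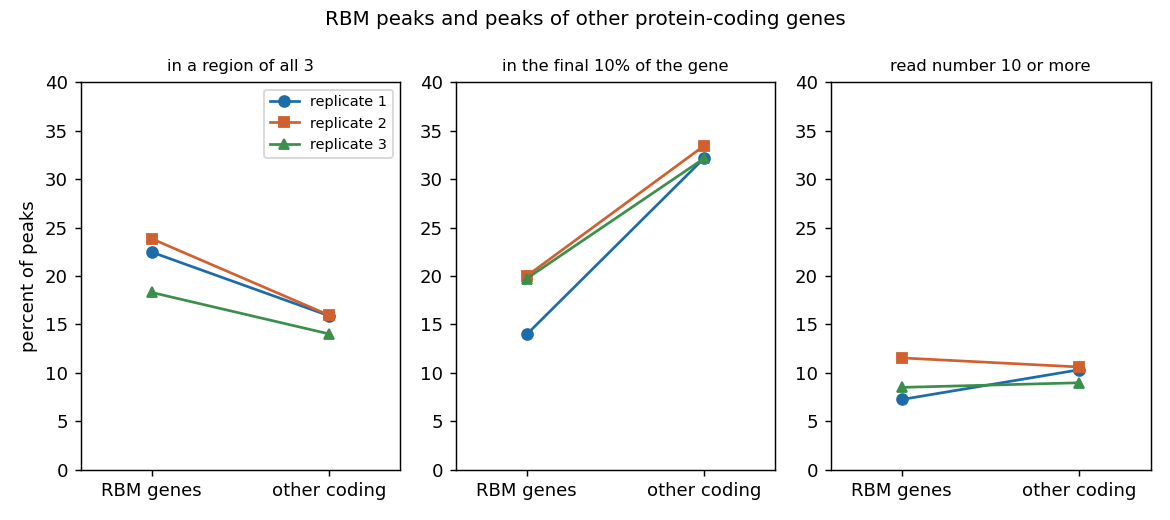
Percent of the peaks of RBM genes and of other protein-coding genes, per replicate, that lay in a region of all 3 replicates, in the final 10% of the gene or had a read number of 10 or more. RBM peaks lie lower in the middle panel in each of the 3 replicates.

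Position along the gene was not used to choose the family. In genes of 5000 bp or more, 14.0%, 20% and 19.7% of RBM peaks lay in the final 10% of the gene in replicates 1, 2 and 3, against 32.2%, 33.5% and 32.2% of the peaks of other protein-coding genes. RBM peaks were lower in 3 of 3 replicates, by -14.7 percentage points ± 3.09 (SD, n = 3; exact two-sided sign-flip permutation test over replicates, p = 0.25, the smallest this design can give). With 3 replicates the threshold of 0.05 cannot be reached. Counted in the final 1000 bp instead, the difference was -6.46 points. Of the 28 regions in all 3 replicates, 2 lay in the final 10% of their gene, those of RBMX and RBM18. In the first 10% lay 1, that of RBM26, and 19 lay beyond the midpoint. RBM25, RBMX and RBM3 held 16 of the 28, and the same counts were not made for other genes. No trait of the family is read from them.

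Genes that work with RBM proteins were counted from lists written with earlier results of these data known, and are to be read against the 28.6% of all protein-coding genes with a peak and the 6.18% with a region in all 3 replicates. Of 12 genes of 3′ splice site recognition and SF3B, 10 held a peak and 3 a region in all 3 replicates, DHX15 and DDX46 with 2 each and U2AF2 with 1. SF3B1 reached read numbers of 15, 13 and 13 without such a region: its highest peaks in replicates 2 and 3 overlapped, and that of replicate 1 lay elsewhere. Of 10 exon junction genes, 6 held a peak and 1, UPF2, a region, the latter near the share of all genes. Of 6 m6A writer genes, 5 held a peak and 2 a region, ZC3H13 with 3 and VIRMA with 2. Of 10 NEXT and PAXT genes the counts were 6 and 3 (ZFC3H1, PABPN1 and NCBP2), and of 7 cold-inducible and RRM relatives 6 and 2 (TRA2A and TRA2B). CIRBP, the cold-inducible relative of RBM3, had highest peaks of 5, 3 and 0. KHDRBS1, which encodes SAM68, a partner of hnRNP G, held 2 regions and highest peaks of 25, 23 and 23, while KHDRBS3 had no peak.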

How the data were processed

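The authors deposited 1 peak list per replicate on hg38, in BED layout with no header; the submitters' processing notes name bedtools and deepTools, with no version of either. Which aligner and peak caller were run, and whether molecular identifiers were used, is not given in the sources used here. The deposited p-values were all under 0.05, with no adjustment stated. The read number at the end of each peak name is not named by the lists, and reading it as reads is an inference from their layout. Reads outside peaks were not analysed, so depth is known only from peaks.

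Lines with the same interval were counted once. Gene IDs were tied to RefSeq genes (GRCh38.p14) by position, needing 80% of an ID's peak centres inside a gene, a share set after seeing the data; 6369 of 6583 IDs were tied, and 31 of them to RBM genes. Lines repeated under readthrough names (13) or a second ID of the same gene (12) were counted once. Scripts ran in Python 3.11.15 with pandas 2.3.3 and were tested on simulated lists. The members and all gene lists were chosen with earlier results of these data known, so the sign-flip tests planned for recurrence and for read numbers of 10 or more are not given. The genes named are those with a region in all 3 replicates or a peak of 10 reads or more, and others by role.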

Additional observations from a re-analysis of the deposited data

How the results depend on the processing

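The lower share of RBM peaks in the final 10% of the gene kept its direction under every alternative run, from -20.9 to -6.46 percentage points, the latter for the final 1000 bp. The recurring share stayed above that of other genes except without RBM25, RBMX and RBM3 (-4.17 points). That alternative was chosen after seeing the data and took out the RBM genes with the most recurring regions, so a fall was built in. Elsewhere the difference in this share ran from 3.30 points with a 50% overlap to 13.8 in the stricter part of each list by p-value. With replicates left out, it ran from 3.47 without replicate 1 to 8.59 without replicate 3. The share with 10 or more reads turned to 0.119 points when intervals under another gene ID were left out, and ranged from -1.78 to 0.228 when each replicate was left out. It was -6.69 without RBM25, RBMX and RBM3, where a fall was again built in, and -4.58 with read numbers of 5 or more. The cause was not tested for any of these. Regions in all replicates numbered 17 when a 50% overlap of both peaks was required, 72 with a peak in 2 or more replicates, and 38 to 44 when each replicate was left out, where fewer replicates had to share a peak. Genes with such a region numbered 7 with read numbers of 5 or more and 19 with a peak in 2 or more replicates. The RBM share of the nuclear-encoded read number was 0.636% in the stricter part of each list by p-value, 0.653% with read numbers of 5 or more, 0.680% without intervals under another gene ID, 0.767% with touching peaks counted once and 0.856% of protein-coding read numbers. The samples form 1 group, so no pairing between groups of samples was possible. RBM genes and other genes were compared within each replicate. Many RBM peaks hold the lowest read number of 3, and on average 2.62% of these recurred, against 3.47% for other genes. Whether more of them would recur at another depth was not tested.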
